A study of Mus musculus with 4 samples.

Results

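Cyr61, Ctgf, Amotl2, Lats2, Ajuba, Tead1, Fhl2, Myof and Rbms3 are followed here across 4 single-cell libraries of alveolar type II (AT2) cells, as a set of 9 genes chosen by name, out of 17117 genes in the deposited table. They are genes tied to YAP and TAZ activity and to mechanical load on the cell. The set was named after earlier results of these data were known, so its count of changed genes describes these libraries. All mice carried Sftpc-CreER, which makes a tamoxifen-dependent Cre recombinase in cells that express the surfactant gene Sftpc, and Rosa26-mTmG, a reporter that turns green after Cre has acted, and all received tamoxifen. The null PNX library came from Cdc42 AT2 null mice (Cdc42flox/-) on day 21 after pneumonectomy (PNX, removal of lung tissue, after which the remaining lung expands and regrows), and the null sham library from Cdc42 AT2 null mice after sham treatment. The control PNX library came from control mice (Cdc42flox/+) on day 21 after PNX, and the control sham library from control mice after sham treatment. The labels give postnatal day 80 for each library. GFP marks cells in which the reporter recombined, but the sorted cells also held lymphocytes and other cells that are not alveolar. The labels give neither the number of mice behind a library nor a check of the floxed allele in the sorted cells.

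YAP and TAZ are transcription co-activators that bind TEAD proteins on DNA. The Hippo kinases LATS1 and LATS2 phosphorylate them and keep them out of the nucleus, and tension on the actin cytoskeleton, spread cell shape and a stiff matrix favour their entry. In the lung, AT2 cells make surfactant and give rise to AT1 cells, the thin cells of gas exchange, and YAP/TAZ activity has been tied to that step and to regrowth after PNX. Cdc42, the floxed gene, takes part in cell polarity and the control of the actin network.

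Each group is 1 library, so there is no replicate error and no test. Intervals are 95% exact counting intervals, they treat unique molecular identifiers (UMIs) as independent, and they say nothing of how mice differ. The libraries held 2370 cells (null PNX), 3344 cells (null sham), 2252 cells (control PNX) and 2111 cells (control sham), and 108 of the 10077 cells shared a barcode with a cell of another library. Null PNX stood apart in depth, since its median cell had 9706 UMIs while the medians of the other libraries were 4503 to 4845. Cells were gated, as given next, on their full counts, so a deeper cell was more likely to show 1 UMI of a gate gene. Each gated cell was then thinned at random to 2500 UMIs, and levels and shares were read after thinning unless stated otherwise. Alveolar cells were taken as cells with at least 2% of their UMIs from Sftpc or at least 1 UMI of Cldn4, a tight-junction gene of the transitional state between AT2 and AT1 cells, and with no UMI of Ptprc, Pecam1 or Col1a2. After thinning this left 1858 null PNX, 2375 null sham, 1810 control PNX and 1486 control sham cells, 7529 in all. The Cldn4 arm of that gate alone admitted 424 of the null PNX cells, against 19 null sham cells, 1 control PNX cell and 0 control sham cells. For this reason some of the results below are also given without it. Sftpc led the AT2 marker list in every library and all 9 AT2 markers were detected in each. Cdc42 itself had 376 CPM in null PNX, 263 CPM in null sham, 234 CPM in control PNX and 172 CPM in control sham (CPM, the gene's share of all thinned UMIs of the library's alveolar cells, scaled to counts per 1e6). The library chemistry reads 3′ ends and the labels do not say which exon is floxed, so these Cdc42 values do not check the deletion.

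The windows of DNA just upstream of 4 of the genes are shown because these genes moved in opposite directions in null PNX. Windows of 250 bases before each start were available from RefSeq (GRCm38.p6) for 7 of the 9 genes, as 10 windows, because Fhl2, Lats2 and Rbms3 each have 2 starts. Capitals mark the letters of a TEAD motif (GGAATG, or CATTCC when read on the other strand) in the sequences of Cyr61 and Ajuba and of an SRF motif (the CArG box, which binds serum response factor) in that of Fhl2. The sequence of Rbms3 holds neither. They lie at chr3:145649986-145650235 (Cyr61), chr14:54577662-54577911 (Ajuba), chr1:43163962-43164211 (second start of Fhl2) and chr9:117629914-117630163 (first start of Rbms3), all on the minus strand and printed 5′ to 3′ along the gene. GENCODE M21 annotates no exon in these windows, and the Fhl2 window is intronic to longer Fhl2 transcripts.
Cyr61: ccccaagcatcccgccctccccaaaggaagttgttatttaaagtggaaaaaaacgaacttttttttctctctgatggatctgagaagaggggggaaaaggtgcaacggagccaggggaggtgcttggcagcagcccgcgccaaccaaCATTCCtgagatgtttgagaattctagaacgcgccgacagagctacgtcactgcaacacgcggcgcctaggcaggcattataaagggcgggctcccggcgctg
Ajuba: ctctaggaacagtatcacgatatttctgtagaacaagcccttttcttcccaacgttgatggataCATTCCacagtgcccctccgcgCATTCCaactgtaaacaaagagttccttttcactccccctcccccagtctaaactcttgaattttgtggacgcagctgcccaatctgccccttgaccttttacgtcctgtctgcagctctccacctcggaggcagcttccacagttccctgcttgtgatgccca
Fhl2: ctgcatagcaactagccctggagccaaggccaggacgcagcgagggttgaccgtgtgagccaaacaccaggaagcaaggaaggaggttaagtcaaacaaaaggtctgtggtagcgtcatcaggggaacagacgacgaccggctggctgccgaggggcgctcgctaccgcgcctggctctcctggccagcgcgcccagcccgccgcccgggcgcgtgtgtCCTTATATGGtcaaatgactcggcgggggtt
Rbms3: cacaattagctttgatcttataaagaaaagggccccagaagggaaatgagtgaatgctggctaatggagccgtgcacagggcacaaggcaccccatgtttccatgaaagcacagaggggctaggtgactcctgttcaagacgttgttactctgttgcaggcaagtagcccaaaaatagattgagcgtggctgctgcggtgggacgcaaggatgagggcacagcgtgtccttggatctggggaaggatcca
The TEAD letters of Cyr61 began 103 bases before the start, and those of Ajuba began 186 and 164 bases before it. Amotl2, whose window is not printed, held the TEAD letters 65 bases before its start. Unlike Cyr61 and Ajuba, Amotl2 was not raised in null PNX, with ratios of 1.05 over null sham and 0.397 over control PNX. Exons of Amotl2 itself cover 136 bases of its window. TEAD letters were thus in 3 of the 10 windows, against 12.6% of all 32851 RefSeq mouse windows of this length. Both Fhl2 windows held a CArG box, at 31 bases before the second start and 96 bases before the first, against 1.47% of all windows, and none of the matches overlapped. Exons of Fhl2 itself cover 223 bases of the first window. The AP-1 letters (TGANTCA, the same on both strands) were in 0 of the 10 windows and in 6.75% of all windows. A match of letters is a description of the window and does not show that a factor binds there.

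Both secreted genes were higher in null PNX. Cyr61 (also named CCN1, chromosome 3, 145646976 to 145649981 on mm10), a matricellular protein and a direct target of YAP and TEAD, had 905 UMIs in null PNX, 44 in null sham, 38 in control PNX and 33 in control sham. As levels these were 195, 7.41, 8.40 and 8.88 CPM in the same order of libraries. The other 3 libraries did not differ from each other beyond their counting intervals, and null PNX lay above each of them. The ratio of null PNX over null sham was 26.3 (95% interval 19.4 to 36.4), and that of null PNX over control PNX was 23.2 (16.8 to 33.0). A Cyr61 UMI was seen in 17.8% of null PNX cells (95% Clopper-Pearson interval 16.0 to 19.6), against 1.60% of null sham, 1.77% of control PNX and 1.48% of control sham cells. With every UMI kept, at the unequal depths, the shares were 32.4% in null PNX, 2.28% in null sham, 3.65% in control PNX and 2.70% in control sham. The UMIs were unevenly spread among the null PNX cells that had one: 170 of the 330 such cells had at least 2 UMIs, 13 had at least 10, and 1 cell had 21.

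Ctgf (CCN2, chromosome 10, 24595442 to 24598683), the second secreted matricellular gene and likewise a YAP/TEAD and TGF-β target, was scarce. It had 75 UMIs in 39 null PNX cells, 2 UMIs in 2 null sham cells, 10 UMIs in 8 control PNX cells and 5 UMIs in 5 control sham cells. Its levels were 16.1 CPM in null PNX, 0.337 CPM in null sham, 2.21 CPM in control PNX and 1.35 CPM in control sham, and null PNX was the highest. The ratio was 47.9 for null PNX over null sham, with a wide interval (12.8 to 403) because the null sham level rests on 2 UMIs, and 7.31 (3.76 to 15.9) for null PNX over control PNX. Among cells that were at 2% Sftpc or more, with no Cldn4 arm and no thinning, Ctgf had 2.62 CPM in null PNX and 2.11 CPM in control PNX, a ratio of 1.24 (0.721 to 2.20), while Cyr61 had 94.2 CPM and 9.33 CPM there. Cyr61 had a ratio of 10.1 (8.19 to 12.6) over control PNX in these cells, while the Ctgf interval includes 1. Over null sham, in the same cells, Ctgf had a ratio of 5.37 (2.39 to 14.1).

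**Figure D1:**
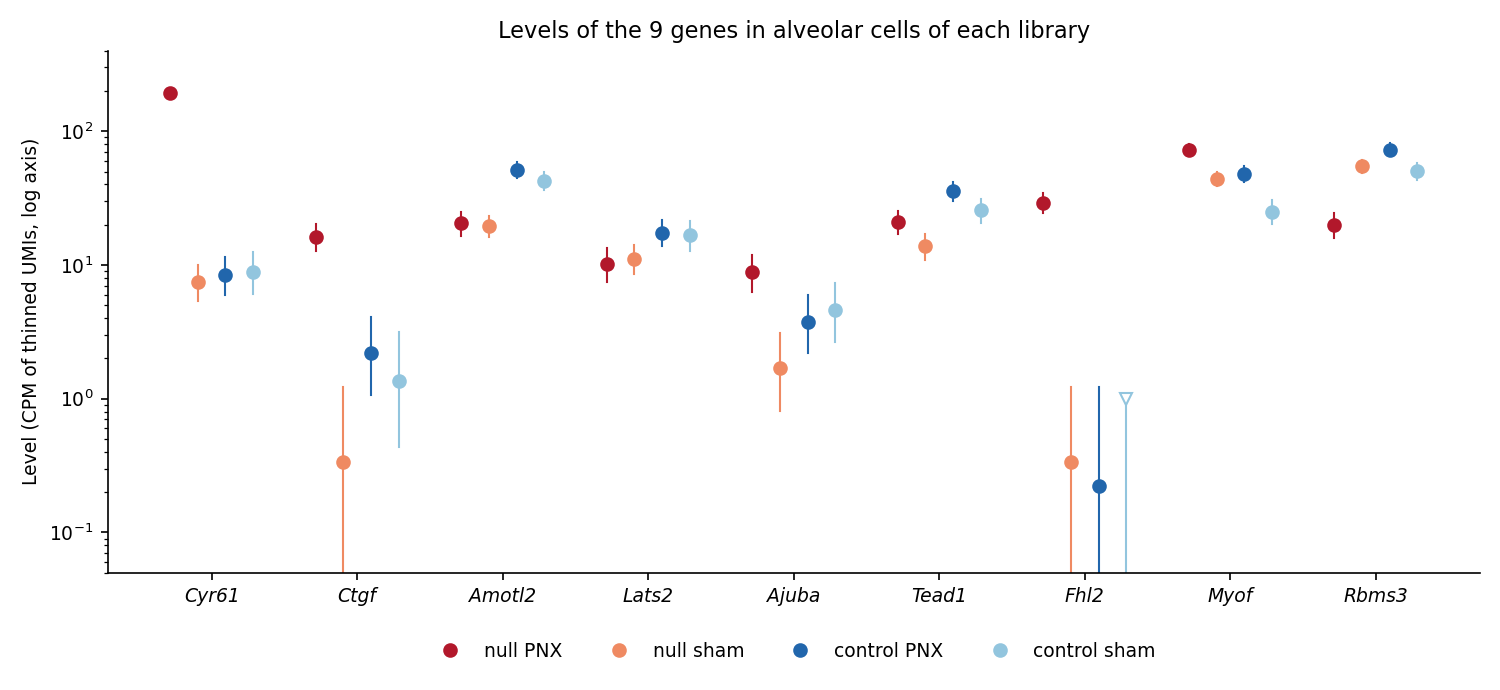
Level of each of the 9 genes in alveolar cells of the 4 libraries, in CPM of thinned UMIs on a log axis; points are levels, bars are 95% Poisson intervals of the UMI count (those reaching below 0.05 CPM run off the axis) and the open triangle is the upper limit where no UMI was seen. Cyr61, Ctgf, Ajuba, Fhl2 and Myof are highest in null PNX, and Rbms3 is lowest there.

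Among the Hippo regulators, Ajuba stood apart from Amotl2 and Lats2. Ajuba (chromosome 14, 54567472 to 54577558), a LIM-domain scaffold that restrains LATS kinases and is recruited to junctions under tension, had 41 UMIs in null PNX, 10 in null sham, 17 in control PNX and 17 in control sham, never more than 1 in a cell. Its levels were 8.83 CPM in null PNX, 1.68 CPM in null sham, 3.76 CPM in control PNX and 4.58 CPM in control sham. Null PNX over null sham was 5.24 (2.58 to 11.7), with a higher level in null PNX and also a low level in null sham, since null sham over control sham was 0.368 (0.151 to 0.851). Against control PNX the ratio of null PNX was 2.35 (1.31 to 4.41), on the edge of the threshold described below. With no Cldn4 arm and no thinning, Ajuba in null PNX had a ratio of 1.23 (0.853 to 1.79) over control PNX. Over null sham that ratio was 3.25 (2.07 to 5.28).

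Amotl2 (chromosome 9, 102716672 to 102733418), an angiomotin family protein that holds YAP at junctions and is itself a YAP target, differed by genotype. Both null libraries were low, with 20.5 CPM in null PNX and 19.5 CPM in null sham, and both control libraries were high, with 51.5 CPM in control PNX and 42.8 CPM in control sham. The ratio was 0.397 (0.310 to 0.506) for null PNX over control PNX and 0.456 (0.356 to 0.584) for null sham over control sham. PNX over sham was 1.05 (0.790 to 1.38) in null mice and 1.20 (0.979 to 1.48) in control mice, and both intervals include 1. Lats2 (chromosome 14, 57689662 to 57758388), the kinase that inactivates YAP and TAZ and that YAP induces in turn, had 10.1 CPM in null PNX, 11.1 CPM in null sham, 17.5 CPM in control PNX and 16.7 CPM in control sham. Both null libraries lay below both control libraries, as for Amotl2, with ratios of 0.580 (0.395 to 0.842) for null PNX over control PNX and 0.666 (0.464 to 0.958) for null sham over control sham. Without thinning the first of these Lats2 ratios was 0.681 (0.551 to 0.844).

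Tead1 (chromosome 7, 112679318 to 112906807), one of the DNA-binding partners through which YAP and TAZ act, had 20.9 CPM in null PNX, 13.8 CPM in null sham, 35.6 CPM in control PNX and 25.6 CPM in control sham. It was lower in the null libraries, at 0.587 (0.451 to 0.760) for null PNX over control PNX and 0.540 (0.397 to 0.733) for null sham over control sham. It was higher after PNX in both genotypes, at 1.51 (1.12 to 2.05) for null PNX over null sham and 1.39 (1.07 to 1.81) for control PNX over control sham. Both intervals include the median ratio of all genes tested, given below, so the rise was not beyond the general shift. In null cells with Cldn4 at 0 and every UMI kept, Tead1 after PNX over sham was 1.17 (0.933 to 1.46). Fhl2 (chromosome 1, 43123074 to 43196984), a LIM-only co-factor that moves between focal adhesions and the nucleus, was seen in alveolar cells of null PNX with few exceptions. It had 135 UMIs in 107 null PNX cells, 2 UMIs in 2 null sham cells, 1 UMI in 1 control PNX cell and 0 UMIs in 1486 control sham cells, which allows a level of up to 0.808 CPM there (3 counts). Null PNX had 29.1 CPM, which gives a ratio of 86.3 (23.4 to 720) over null sham and of 132 (23.2 to 5232) over control PNX, both resting on 1 or 2 UMIs below the line.

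Of the last pair, Myof differed by less than 2-fold in each of the 4 comparisons and Rbms3 fell in null PNX. Myof (chromosome 19, 37899036 to 38043577), a ferlin of membrane repair, had 72.6 CPM in null PNX, 44.0 CPM in null sham, 47.7 CPM in control PNX and 25.0 CPM in control sham. PNX over sham was 1.65 (1.40 to 1.95) in null mice and 1.91 (1.49 to 2.46) in control mice, and null over control was 1.52 (1.28 to 1.81) after PNX and 1.76 (1.38 to 2.25) after sham. All 4 Myof ratios were above 1 beyond their counting intervals and below 2. With no Cldn4 arm and no thinning, Myof in null PNX had a ratio of 1.07 (0.962 to 1.19) over null sham. Over control PNX it was 1.04 (0.928 to 1.18), and both of these intervals include 1. Rbms3 (chromosome 9, 116572746 to 117629913), an RNA-binding protein, had 19.8 CPM in null PNX, 54.9 CPM in null sham, 72.9 CPM in control PNX and 50.3 CPM in control sham. It was seen in 4.63% of null PNX cells, 12.0% of null sham cells, 16.4% of control PNX cells and 11.6% of control sham cells. Without thinning these shares were 17.5%, 23.1%, 27.8% and 21.0% in the same order of libraries. Null PNX over null sham was 0.361 (0.283 to 0.456) and null PNX over control PNX was 0.272 (0.213 to 0.343), whereas control PNX over control sham was 1.45 (1.21 to 1.74), in the other direction.

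To set these differences beside all genes, each ratio was divided by the median ratio over the genes tested, since the median log2 ratio itself was 0.25 for null PNX over null sham, 0.25 for null PNX over control PNX, 0.17 for null sham over control sham and 0.14 for control PNX over control sham. A gene was called when it was then at least 2-fold from the median with a counting interval that left out the median. The genes tested had at least 5 CPM on average over the libraries, a filter that 8 of the 9 genes passed. Ajuba, with a mean of 4.71 CPM, did not pass and was counted nevertheless, while Ctgf, with 5.01 CPM, and Fhl2, with 7.41 CPM, passed through null PNX alone.

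The response to PNX in null mice was the comparison of null PNX with null sham. Fhl2, Ctgf, Cyr61 and Ajuba were called higher, Rbms3 was called lower, and 4 of the 9 genes were in neither class. Of all 8922 genes tested, 6.18% were called higher and 8.57% lower, and with no filter on level the shares were 7.5% higher and 7.01% lower of 15688 genes. In the order of all tested genes, 6 genes lay above Fhl2, 11 above Ctgf, 22 above Cyr61 and 144 above Ajuba, and 186 lay below Rbms3. Ajuba is placed there by its ratio, though it was not itself among the tested genes. Fhl2 and Ctgf entered the order through their null PNX level alone, so the filter favoured high places for them. The median of the 9 genes was 0.48 above the all-gene median on the log2 scale. Over the 6 genes left without Ajuba, Ctgf and Fhl2 it was 0.085 above, with 1 gene called higher and 1 lower. With the cells of Cldn4 at 0 alone, Ctgf (10.7, on 4 and 1 UMIs) and Ajuba (1.61) were no longer called and Lats2 was called lower (0.537, 0.271 to 0.983).

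The effect of the null genotype after PNX was the comparison of null PNX with control PNX, which shares the null PNX library with the comparison above. Fhl2, Cyr61 and Ctgf were called higher, and Rbms3, Amotl2, Lats2 and Tead1 were called lower, against 9.91% of 8922 genes higher and 10.2% lower (9.92% and 8.22% of 15431 genes with no filter on level). The median of the 9 genes lay 0.35 above the all-gene median (log2). Over the 6 genes left without Ajuba, Ctgf and Fhl2 it lay 1.03 below, with 1 gene called higher and 4 lower. The calls of Lats2 and Tead1 were at the edge, with log2 ratios of -1.03 and -1.02 after the median was subtracted. Neither was called when the ratio was not divided by the median. The Lats2 call was also lost with another random draw (0.673), without thinning (0.681) and with cells thinned to 5000 UMIs (0.864) or 1000 UMIs (0.923), and the Tead1 call was lost with cells over 20000 UMIs left out (0.619) and at 5000 UMIs (0.633). Ctgf was no longer called without the Cldn4 arm of the gate (1.39). Ajuba, not called, crossed the threshold under other gates and depths, as when cells were thinned to 5000 UMIs (2.76), and in cells with Cldn4 at 0 and every UMI kept it was called lower (0.481).

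The effect of the null genotype without PNX was the comparison of null sham with control sham. None of the 9 genes was called higher and Ajuba, Amotl2 and Tead1 were called lower, against 3.37% of 8921 genes higher and 2.99% lower (2.97% and 3.47% of 15219 genes with no filter on level). Cyr61 had a ratio of 0.834 (0.519 to 1.35) and Ctgf a ratio of 0.250 (0.0238 to 1.53) on 2 and 5 UMIs, and both intervals include 1. Without thinning, which takes in more UMIs, Cyr61 had 5.58 CPM in null sham and 8.59 CPM in control sham, a ratio of 0.649 (0.465 to 0.906), and it was called lower when cells were thinned to 5000 UMIs (0.451) or 1000 UMIs (0.392). So in null sham none of the genes that were high in null PNX was above control sham beyond its interval, apart from Myof. The Tead1 call was lost with another random draw (0.564), at 5000 UMIs (0.581) and when the ratio was not divided by the median, and the Ajuba call was lost at 1000 UMIs (0.703).

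The response to PNX in control mice was the comparison of control PNX with control sham. None of the 9 genes was called in either direction, against 1.52% of 8921 genes higher and 1.7% lower (1.76% and 2.14% of 14804 genes with no filter on level). Cyr61 was at 0.945 (0.577 to 1.56), Ctgf at 1.64 (0.511 to 6.12), Ajuba at 0.821 (0.394 to 1.71) and Lats2 at 1.05 (0.741 to 1.48). The intervals of Myof, Rbms3 and Tead1 lay above 1, at the ratios given above, though that of Tead1 includes the all-gene median ratio. The ratio of the PNX effect in null over that in control mice, with 0.5 added to each count and each effect divided by its all-gene median, was 25.6 for Cyr61, 22.9 for Ctgf, 5.72 for Ajuba and 0.233 for Rbms3, against 1.01 for Tead1 and 0.806 for Myof, and none is given for Fhl2, which had 0 UMIs in control sham. With 1 library a group, these differences between the genotypes could not be tested.

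**Figure D2:**
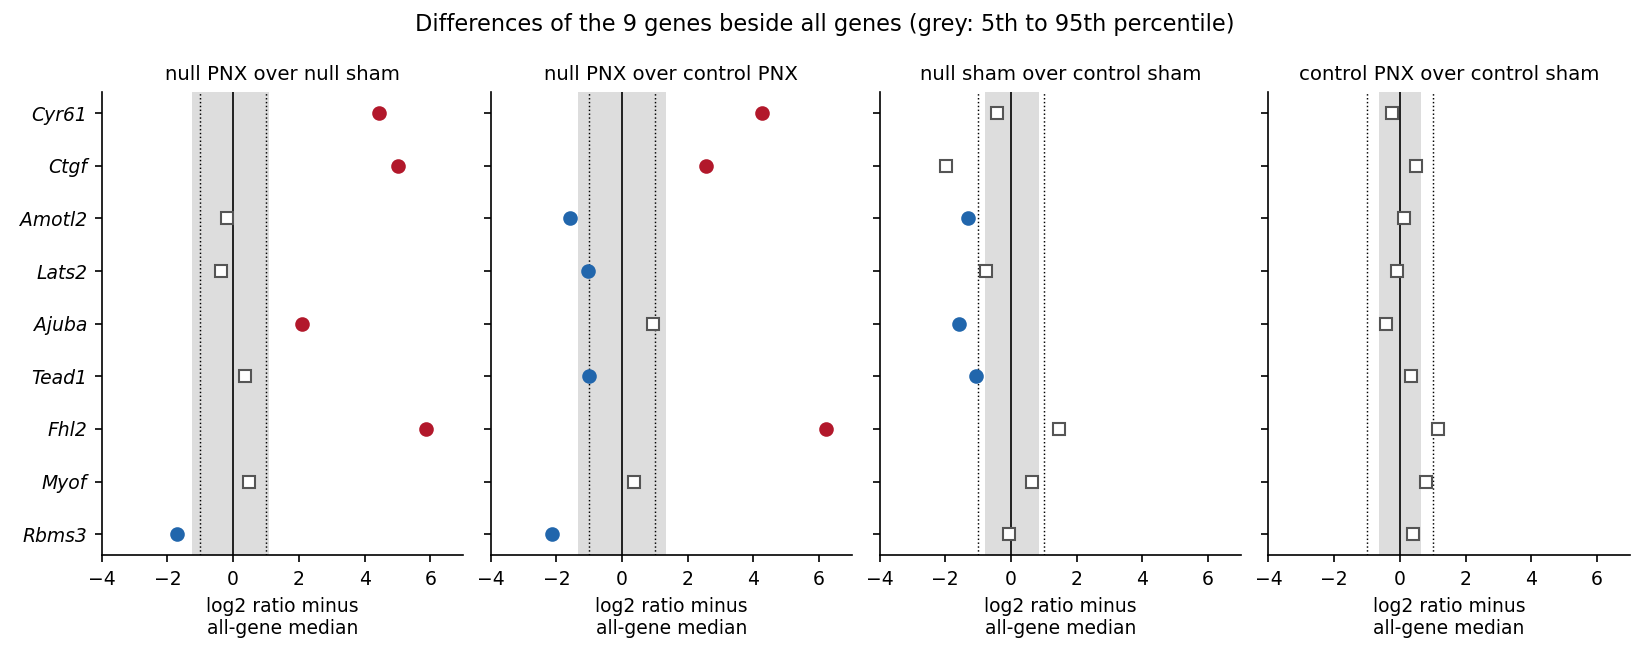
log2 ratio of each gene minus the all-gene median in the 4 comparisons; filled circles were called (red higher, blue lower), open squares were not, dotted lines mark 2-fold and the grey band spans the 5th to 95th percentile of the genes tested. The points of Fhl2, Ctgf and Cyr61 lie far right of the band in both null PNX comparisons, and no gene is called in control PNX over control sham.

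Within null PNX the rise was not shared evenly by the alveolar cells. Cldn4 had at least 1 UMI in 998 of the 1858 cells before thinning, and the other 860 had none; the median depth before thinning was 11813 UMIs in the Cldn4-positive and 9629 UMIs in the Cldn4-negative cells. Cyr61 had 320 CPM in Cldn4-positive and 49.8 CPM in Cldn4-negative cells, a ratio of 6.43 (5.25 to 7.94). Fhl2 had 51.7 CPM in Cldn4-positive and 2.79 CPM in Cldn4-negative cells, a ratio of 18.5 (8.28 to 51.4). Ctgf had 71 UMIs in Cldn4-positive and 4 UMIs in Cldn4-negative cells, a ratio of 15.3 (5.72 to 57.7), and Ajuba had 35 UMIs and 6 UMIs in the same order, a ratio of 5.03 (2.09 to 14.6). Lats2 at 2.25 (1.16 to 4.65) and Myof at 2.01 (1.59 to 2.57) were also higher in Cldn4-positive cells, while the intervals of Amotl2 (1.29, 0.843 to 2.00) and Tead1 (1.53, 0.993 to 2.38) include 1. Rbms3 went the other way, with 11.6 CPM in Cldn4-positive and 29.3 CPM in Cldn4-negative cells, a ratio of 0.397 (0.246 to 0.625).

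Cldn4 is also a term of the gate, and 424 of the 998 Cldn4-positive cells entered through it alone, so the split was repeated in cells at 2% Sftpc or more, an alternative chosen after the data were seen. The 574 Cldn4-positive cells then had a ratio over the 860 Cldn4-negative cells of 3.16 (2.50 to 4.02) for Cyr61, 9.49 (3.98 to 27.5) for Fhl2, 3.50 (1.26 to 11.1) for Ajuba and 0.452 (0.255 to 0.765) for Rbms3. These 4 genes kept their direction, with smaller ratios for Cyr61, Fhl2 and Ajuba. Ctgf had 7 and 4 UMIs, a ratio of 2.62 (0.667 to 12.2), and the intervals of Lats2 (1.96, 0.896 to 4.39) and Myof (1.13, 0.826 to 1.53) now include 1 as well.

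The steps of Cldn4 in the thinned cells, where each cell has the same depth, gave the same order. Cyr61 had 70.5 CPM in the 1283 cells at 0 Cldn4 UMIs, 281 CPM in the 359 cells at 1 to 2, 803 CPM in the 135 cells at 3 to 5 and 770 CPM in the 81 cells at 6 or more. Ctgf stood at 3.43, 27.9, 62.2 and 88.9 CPM over these steps, and Fhl2 at 9.66, 39.0, 113 and 153 CPM. These genes differed most between the lowest and highest step. In cells at 2% Sftpc or more alone, Cyr61 had 62.4, 170, 586 and 657 CPM over the steps, in 1199, 193, 28 and 14 cells. Myof had 51.8 CPM at 0 and 158 CPM at 6 or more, and Rbms3 had 23.4 CPM at 0 and 9.88 CPM at 6 or more. The immediate-early gene Fos, a marker of acute stimulation that cell dissociation also induces, stayed level over the steps, with 277, 256, 279 and 227 CPM. Atf3, an immediate-early and stress gene, did not, with 73.9, 137, 204 and 193 CPM.

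**Figure D3:**
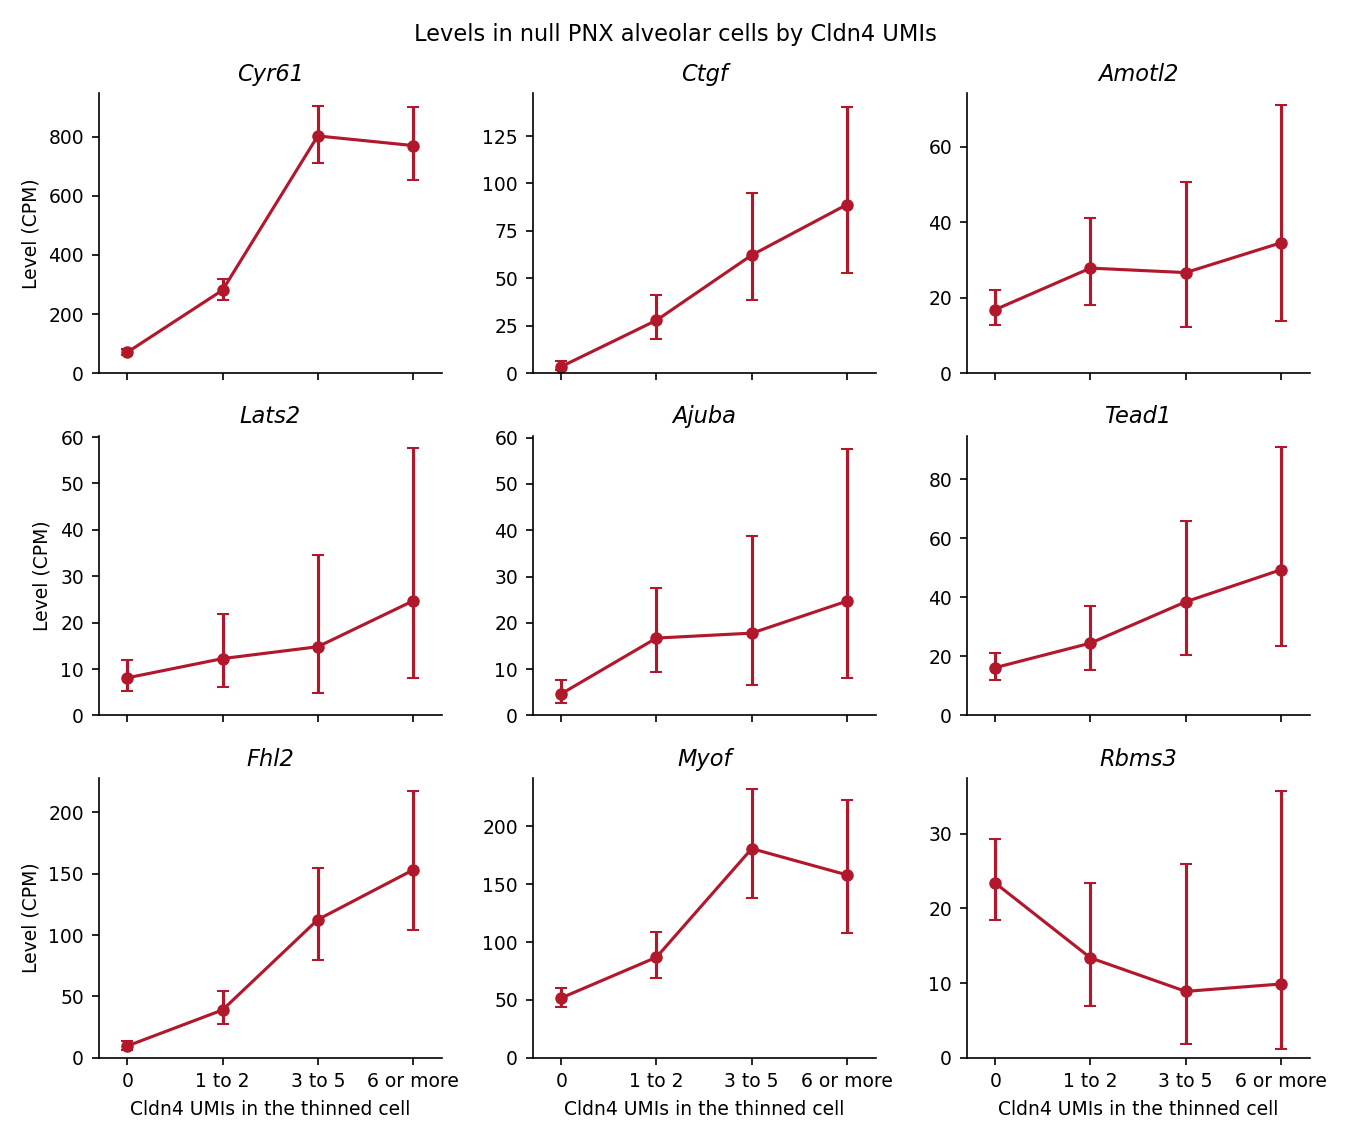
Levels of the 9 genes in null PNX alveolar cells (CPM, axes from 0) by the number of Cldn4 UMIs in the thinned cell; points are levels over 1283, 359, 135 and 81 cells and bars are 95% Poisson intervals. Cyr61, Ctgf and Fhl2 are higher at each step with Cldn4 UMIs than at 0, and Rbms3 is highest in cells with no Cldn4 UMI.

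The share of Sftpc in the cell gave a second axis. Cyr61 had 540 CPM in the 424 null PNX cells under 2% Sftpc, 215 CPM at 2 to 5%, 71.2 CPM at 5 to 10% and 23.2 CPM in the 311 cells at 10% or more. Rbms3 had 9.43, 3.75, 23.9 and 39.9 CPM over the same steps, so it was highest in the cells richest in Sftpc. The cells under 2% Sftpc carried 572 of the 905 Cyr61 UMIs, 64 of the 75 Ctgf UMIs, 91 of the 135 Fhl2 UMIs and 21 of the 41 Ajuba UMIs. They entered through the Cldn4 arm of the gate, so their high Cldn4 is a condition of entry.

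Cyr61 was also raised in null PNX cells with no Cldn4 UMI. In Cldn4-negative cells it had 49.8 CPM in null PNX, 6.59 CPM in null sham, 8.41 CPM in control PNX and 8.88 CPM in control sham, and the ratio of null PNX over null sham was 7.56 (5.17 to 11.2). Rbms3 in these cells had 29.3 CPM in null PNX and 56.2 CPM in null sham, a ratio of 0.522 (0.392 to 0.685). Fhl2 had 6 UMIs in the 860 null PNX cells and 0 in the 2308 null sham cells, and the exact interval of that ratio starts at 3.16. With every UMI kept, Fhl2 had 45 UMIs in the Cldn4-negative null PNX cells and 2 UMIs in the Cldn4-negative null sham cells. Ctgf had 4 UMIs in null PNX and 1 UMI in null sham in these cells, a ratio of 10.7 with a wide interval (1.06 to 529), and with every UMI kept the ratio was 3.92 (1.28 to 14.2). The intervals of Ajuba, at 6 and 10 UMIs, and of Myof, at 47.0 CPM in null PNX and 42.1 CPM in null sham, include 1. Having no Cldn4 UMI does not place a cell outside the transitional state. The 12 transitional markers summed to 6026 CPM in the 860 Cldn4-negative null PNX cells, against 2974 CPM in all null sham alveolar cells. A like split was made in null sham with Krt8, a keratin of transitional alveolar cells. Cells above the median of 1 thinned Krt8 UMI had a Cyr61 ratio of 2.59 (1.35 to 5.12) and an Rbms3 ratio of 0.582 (0.452 to 0.743) over the cells at or below it. In null PNX, where the Krt8 median was 4 UMIs, the same split gave 5.94 (4.99 to 7.11) for Cyr61 and 0.433 (0.260 to 0.699) for Rbms3.

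Few cells held several of the genes at once. Of the 1858 null PNX cells, 418 had a UMI of at least 1 of Cyr61, Ctgf, Fhl2 and Ajuba, 86 of them had at least 2 of these 4 genes and 0 had all 4. In the other libraries 52 of the null sham, 56 of the control PNX and 44 of the control sham cells had any of them. Of the 39 cells with Ctgf, 59.0% also had Cyr61, and of the 107 cells with Fhl2, 44.9% had Cyr61, against 17.8% of all null PNX cells. At 2500 UMIs a gene at these levels is missed in most cells that express it, so an absent UMI does not mark a cell as negative. Across the 1858 cells, the genes whose log levels tracked Cyr61 most closely among those seen in at least 10% of cells were F3 (Pearson's r 0.41), which encodes tissue factor, Cldn4 (0.38), the keratin Krt7 (0.35), Actn1 (0.35), which cross-links actin at adhesions, and the keratin Krt8 (0.34). The values for the immediate-early genes Fos, Egr1 and Atf3 were 0.02, 0.02 and 0.16, and that for Sftpc was -0.34. All of these cells share 1 library and 1 thinned depth. Cldn4 and Sftpc are also the terms of the gate, which admits cells under 2% Sftpc only if they have Cldn4. The gate thus shapes the correlations of Cyr61 with both, and no value without the Cldn4 arm is given.

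Other cells could carry the same genes, so their levels were read at a common 1000 UMIs per cell. Among 82 cells with at least 2 Col1a2 UMIs and under 2% Sftpc, which the gate removes, 47.6% had Cyr61 and 22.0% had Ctgf. The 18 of these cells in null PNX had lower shares, 27.8% (9.69 to 53.5) with Cyr61 and 11.1% (1.38 to 34.7) with Ctgf, and the 9 in control sham had higher ones, 88.9% and 66.7%. Among the null PNX alveolar cells the shares were 10.9% with Cyr61 and 1.40% with Ctgf. In the thinned alveolar cells, 5 of the 10 fibroblast markers were at 0 in null PNX (Col1a2, Pdgfra, Lum, Inmt and Tcf21), and the list summed to 99.7 CPM in null PNX, 68.5 CPM in null sham, 5.97 CPM in control PNX and 22.9 CPM in control sham. Fn1, which transitional epithelial cells also make, gave 74.9 CPM of the null PNX sum. Col1a2 is at 0 in every set of alveolar cells because the gate demands it, and a small set of cells can leave more markers at 0. The counts of markers at 0 therefore cannot be compared between sets of unlike size. In the 39 null PNX cells with Ctgf, 7 of the 10 fibroblast markers were at 0, and the epithelial keratins Krt8 and Krt18 had 551 and 547 UMIs. The fibroblast list summed to 728 CPM in these cells (133 CPM without Fn1, with 8 UMIs of the collagen gene Col1a1), against 59.6 CPM in the 1456 null PNX cells with none of Ctgf, Cyr61 and Fhl2 (22.5 CPM without Fn1, with 17 UMIs of Col1a1). In the 56 cells with at least 5 Cyr61 UMIs, 8 of the 10 fibroblast markers were at 0, Krt18 had 929 UMIs, and the list summed to 429 CPM (35.7 CPM without Fn1, with 5 UMIs of Col1a1). The 5 mesothelial markers summed to 14.6 CPM in null PNX, of which Msln gave 12.1 CPM, 1.35 CPM in null sham, 0.442 CPM in control PNX and 0.269 CPM in control sham; 4 of the 5 were detected in null PNX, and Krt14 was at 0 in every library. The part of such cells or their RNA in the levels of Cyr61 and Ctgf was not tested.

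Free RNA was gauged in 251 lymphocytes of the 4 libraries, which had a median of 3176 UMIs against 5415 in the alveolar cells. At 1000 UMIs, 0.797% of lymphocytes had Cyr61 (0.0966 to 2.85), against 10.9% of null PNX, 0.456% of null sham, 0.913% of control PNX and 1.20% of control sham alveolar cells. The Cyr61 shares of the other 3 libraries lay within the lymphocyte interval, which rests on 2 cells. At this depth the low Cyr61 levels there could thus not be told from free RNA. Ctgf, Amotl2, Ajuba, Tead1 and Rbms3 were in 0 of the 251 lymphocytes, which allows a share of up to 1.20%. The 67 lymphocytes of null PNX alone allow up to 4.48%. That is above the null PNX alveolar share of each of these genes (1.02 to 2.80%), so those shares could not be told from free RNA. Cyr61 was in 1.49% of these 67 lymphocytes (0.0378 to 8.04). Lats2 was in 1.99% of lymphocytes (0.650 to 4.59) and in 1.06 to 1.62% of the alveolar cells of the 4 libraries, so its alveolar share did not exceed that of lymphocytes, which rests on 5 cells. Fhl2 was in 2.79% of lymphocytes (1.13 to 5.66), spread over all 4 libraries, and in 2.74% of null PNX alveolar cells, so this share did not exceed that of lymphocytes. In the same libraries 0 of 2630 null sham, 0 of 1972 control PNX and 0 of 1665 control sham alveolar cells had an Fhl2 UMI at this depth, so for Fhl2 the lymphocyte share is above that of alveolar cells of the same libraries and does not gauge free RNA in them. Myof was in 0.797% of lymphocytes and in 2.58 to 6.62% of alveolar cells.

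**Figure D4:**
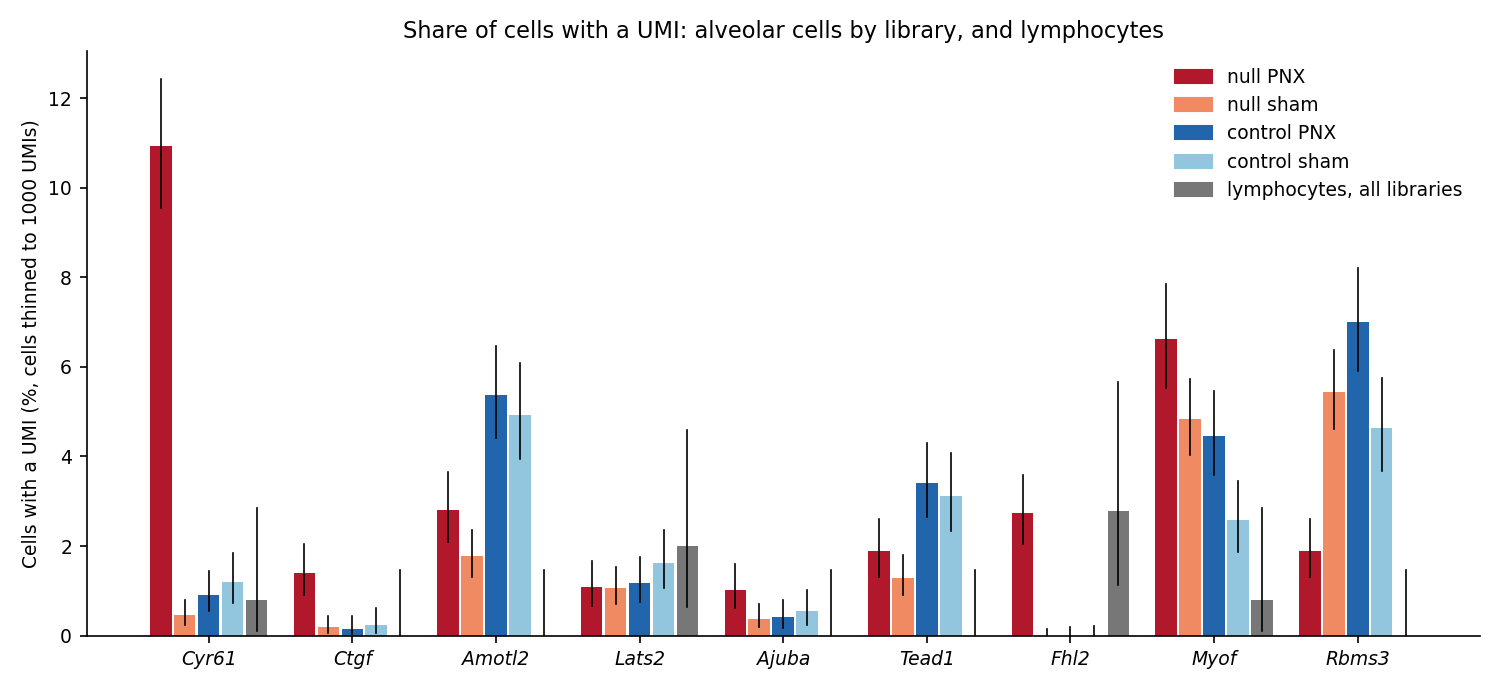
Share of cells with a UMI of each gene when every cell is thinned to 1000 UMIs (percent, from 0), for alveolar cells of the 4 libraries and for 251 lymphocytes of all libraries together; black lines are 95% Clopper-Pearson intervals. Cyr61 in null PNX alveolar cells stands above lymphocytes (10.9% and 0.797%), while Lats2 and Fhl2 do not.

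The rest of the pathway was read from 4 lists that hold none of the 9 genes, each counted over its members of at least 5 CPM, which were 22 of 28 Hippo and YAP/TAZ core genes, 13 of 27 other YAP/TAZ targets, 22 of 26 genes of SRF and actomyosin and 18 of 19 immediate-early genes. Of all genes tested, 6.18% were called higher and 8.57% lower in null PNX over null sham, and 9.91% and 10.2% in null PNX over control PNX. The shares were 3.37% and 2.99% in null sham over control sham, and 1.52% and 1.7% in control PNX over control sham. The genes of the co-activators themselves come first. Yap1 had 27.1 CPM in null PNX, 32.7 CPM in null sham, 32.3 CPM in control PNX and 29.6 CPM in control sham, and Wwtr1, which encodes TAZ, had 32.7, 23.7, 23.6 and 24.8 CPM in the same order; both are named for their role, and neither was called in any comparison. After PNX, null mice had 0 core genes called higher and 1 lower than null sham, Nf2 (0.462), the tumour suppressor that activates LATS at the membrane. Against control PNX, 0 were higher in null PNX and 5 were lower, namely Frmd6 (0.448), Nf2 (0.475), Wwc1 (0.480), Wwc2 (0.487) and Wtip (0.519). Frmd6, Nf2, Wwc1 and Wwc2 encode upstream activators of LATS, and Wtip is a LIM protein of the Ajuba family. The median of the list lay 0.49 below the all-gene median in the first comparison and 0.46 below it in the second (log2). In null sham over control sham 1 core gene was higher, the phosphatase Ptpn14 (3.28), and 0 were lower, and in control PNX over control sham 0 were called.

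Several other YAP/TAZ targets were higher in null PNX. Null PNX had 6 of the 13 higher than null sham and 0 lower, against 6.18% of all genes tested higher and 8.57% lower. But Nt5e, Edn1 and Birc5 reached the mean of 5 CPM through null PNX alone, and without them the count was 3 of 10. Areg, an EGF receptor ligand, had 605 CPM in null PNX and 68.4 CPM in null sham (ratio 8.85), and F3 had 241 CPM in null PNX and 44.3 CPM in null sham (5.43). Nt5e, the ecto-enzyme CD73, had a ratio of 27.6, Edn1, the peptide endothelin, of 18.7 and Gadd45a, a stress gene, of 2.98. Birc5, a gene of dividing cells, had 119 UMIs in null PNX and 0 UMIs in null sham, and the exact interval of that ratio starts at 40.6. Against control PNX, null PNX had 7 higher, namely Nt5e (105, on 1 control PNX UMI), F3 (15.6), Areg (12.1), the galectin Lgals3 (6.94), Birc5 (6.82), Edn1 (6.46) and the matrix gene Thbs1 (4.66), and 1 was lower, Arhgef17 (0.342). Without Nt5e, Edn1 and Birc5, 4 of 10 were higher and 1 lower, against 9.91% of all genes tested higher and 10.2% lower. The median of the 13 was 0.84 above the all-gene median in the first comparison and 1.96 above it in the second (log2), against 0.44 and 0.00 without those 3 genes. Over all 27 genes of the list, with no filter on level, it was 0.84 and 1.29, with 11 and 12 genes called higher. The all-gene shares called higher with no filter were 7.5% and 9.92%. In null sham over control sham F3 (7.48), Lgals3 (4.19) and Thbs1 (3.28) were higher and Birc5, at 0 UMIs in null sham and 6 UMIs in control sham, was lower. In control PNX over control sham 2 were higher, Nuak2 (2.79), a kinase of actomyosin tension, and F3 (2.61). F3 was the 1 target of this list that was called higher in all 4 comparisons.

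Some genes of SRF and actomyosin were higher in the null libraries. In null PNX over control PNX 9 of 22 were higher, 0 were lower and 13 were not called, against 9.91% of all genes tested called higher and 10.2% lower. The tropomyosin Tpm2 had 208 CPM in null PNX and 4.42 CPM in control PNX (47.1), the focal adhesion gene Zyx had 76.9 CPM in null PNX and 12.6 CPM in control PNX (6.10), and Tpm4 had 454 CPM in null PNX and 126 CPM in control PNX (3.61). Actg1 (3.21), Flna (3.06), Myh9 (2.84), Tpm1 (2.82), Actn1 (2.71) and Cfl1 (2.52), which encode actin, its cross-linkers, a myosin heavy chain, a tropomyosin and an actin-severing protein, completed the 9. In null sham over control sham 5 of 22 were higher, against 3.37% of all genes tested, 0 were lower and 17 were not called. The 5 were Tpm2 (6.76), Flna (5.46), Tpm4 (2.94), Actn1 (2.78) and Actg1 (2.73). In null PNX over null sham 2 were higher, Tpm2 (11.4) and Zyx (3.48), and 0 were lower, and in control PNX over control sham 0 were called in either direction. Flna, Tpm4, Actn1 and Actg1 were thus raised in null sham, where Cyr61, Ctgf and Fhl2 were not above control sham beyond their counting intervals. Cyr61 and Ctgf had their lowest levels there, at 7.41 and 0.337 CPM.

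Immediate-early genes, which respond to serum, stretch and dissociation, did not move as a block. In null PNX over null sham 2 of 18 were higher, Atf3 (8.43) and Klf2 (2.63), and 2 were lower, Zfp36 (0.559) and Egr1 (0.589). The all-gene shares there were 6.18% higher and 8.57% lower. In null PNX over control PNX 7 were higher, led by Klf2 (16.8), Atf3 (8.14), Myc (4.72) and Klf6 (3.91), with Ier3 (2.75), Nr4a1 (2.46) and Junb (2.45), and 1 was lower, Zfp36 (0.561). The all-gene shares there were 9.91% higher and 10.2% lower. In null sham over control sham Myc (16.3, on 2 control sham UMIs) and Klf2 (4.17) were higher and 6 were lower, with ratios between 0.315 for Atf3 and 0.547 for Fosb. The all-gene shares there were 3.37% higher and 2.99% lower. In control PNX over control sham Myc (5.34) was higher and 5 were lower, namely Nr4a1 (0.229), Egr1 (0.256), Atf3 (0.326), Ier2 (0.370) and Fos (0.532). The all-gene shares there were 1.52% higher and 1.7% lower. Control sham thus had the highest Fos (290 CPM), Ier2 (449 CPM) and Egr1 (126 CPM) of the 4 libraries. In the thinned cells its Cyr61 (8.88 CPM) did not differ from that of null sham or control PNX beyond the counting intervals. The part of dissociation in any of these differences was not tested.

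**Figure D5:**
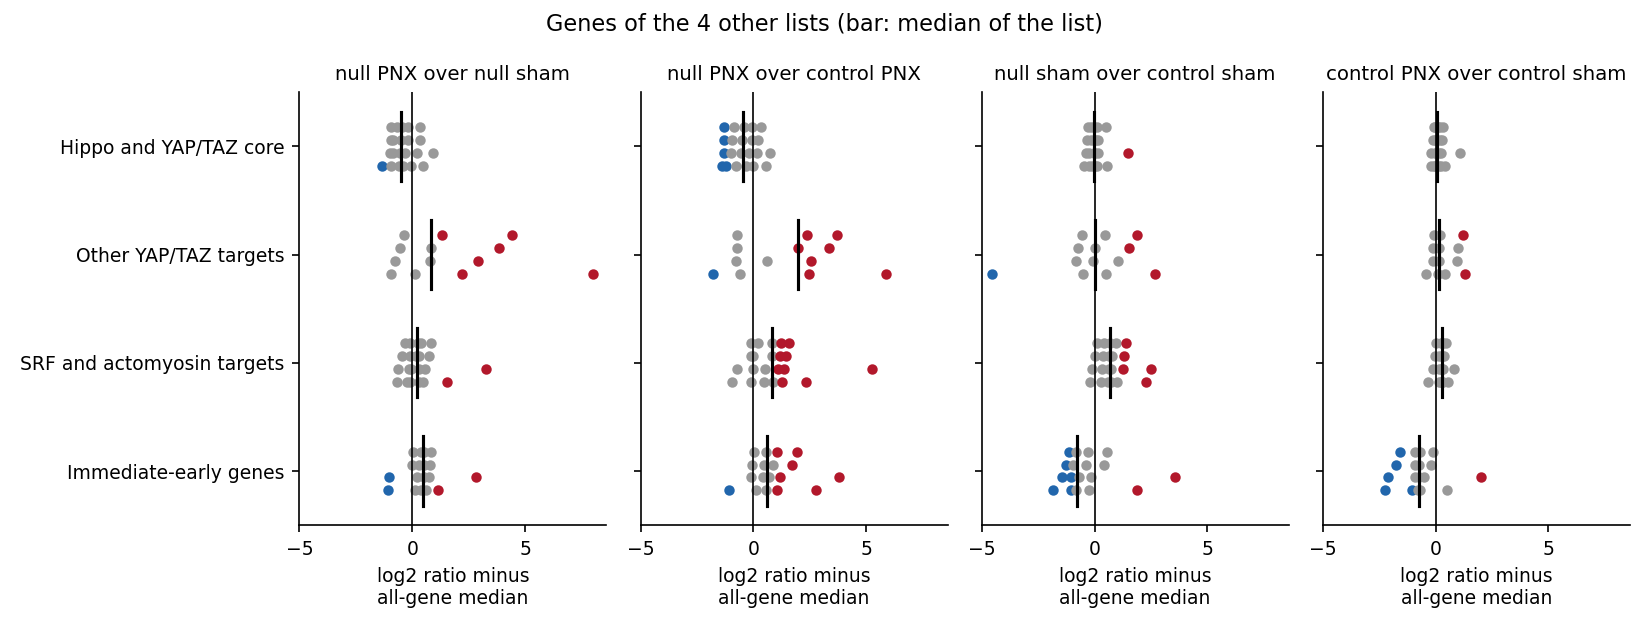
log2 ratio minus the all-gene median for the genes of the 4 other lists in the 4 comparisons; each point is a gene of at least 5 CPM on average, red was called higher, blue lower and grey neither, and the bar is the list's median. The medians of the other YAP/TAZ targets lie 0.84 and 1.96 right of 0 in the null PNX comparisons, and those of the core genes lie 0.49 and 0.46 left of it; without the 3 targets that pass through null PNX alone, the targets' medians are 0.44 and 0.00.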

How the data were processed

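Single-cell libraries were made with 10x Genomics 3′ chemistry from sorted GFP+ cells, per the labels' protocols. The authors deposited 1 table of UMI counts, whole numbers per gene and cell, in which the barcode ending names the library. The submitters' processing notes list Cell Ranger 2.1.0, Seurat 2.3.4 and the mm10 build. The sources used here do not give the annotation release, the chemistry version or whether doublets were removed. No doublet caller was run, and cells over 20000 UMIs were left out as an alternative.

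Counts were read as deposited with Python 3.11.15, numpy 2.4.6, scipy 1.17.1 and pandas 2.3.3. Alveolar cells were gated and thinned without replacement to 2500 UMIs, cells below that being left out (0 null PNX, 255 null sham, 162 control PNX and 183 control sham cells), and UMIs were summed per library. Library totals after thinning were 4645000 UMIs (null PNX), 5937500 UMIs (null sham), 4525000 UMIs (control PNX) and 3715000 UMIs (control sham). Levels have exact Poisson intervals, shares Clopper-Pearson intervals and ratios exact binomial intervals. These cover counting error only. log2 ratios used an added count of 0.5. A count of 0 was given a limit of 3 counts. The functions were tested on simulated data. After a first run the random draw was changed to 1 seed per cell, so that a cell gives the same UMIs under every gate.

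The 9 genes and the other lists were chosen with earlier results of these data known. Besides the 9 genes, the text names every gene of a list that was called in a comparison, up to 8 a list, and the 5 closest neighbours of Cyr61. Genes named outside this rule are said to be so. Cyr61 and Ctgf, the names in the table, were matched to Ccn1 and Ccn2 through RefSeq synonyms. Gene coordinates are from GENCODE M21. The alternatives tried changed the gate, the depth of thinning, the random draw, the scaling, the filter on level and the fold.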

Additional observations from a re-analysis of the deposited data

Results flagged for a closer look

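Rbms3 moved in opposite directions after PNX in the 2 genotypes. Its ratio was 0.361 (0.283 to 0.456) for null PNX over null sham and 1.45 (1.21 to 1.74) for control PNX over control sham, from 1 library in each group. The difference was not tested, because no group has a second library.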

How the results depend on the processing

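No paired analysis was possible because each group is 1 library. The count of the 9 genes called stayed within 1.5 times its value in 67 of 72 recounts. With genes of at least 20 CPM it was 2 instead of 5 for null PNX over null sham and 4 instead of 7 for null PNX over control PNX, since fewer of the 9 genes are counted. For null sham over control sham it was 5 at a fold of 1.5 and 1 at a fold of 3, instead of 3, and for control PNX over control sham it was 1 at a fold of 1.5, instead of 0. Of 504 recomputed ratios 451 moved by less than their counting interval, 51 moved further and 2, of a called gene, turned, both for Ctgf in null PNX over control PNX with Cldn4 at 0: 0.840 thinned and 0.665 with every UMI kept, a gate chosen after the data were seen in the second case. Ratios that had 0 UMIs in a library gave no value, which left out 2 comparisons of Fhl2 whole and 6 alternatives of its other 2 comparisons. Of 432 shares of cells 167 moved, most with a change of depth. The count of all genes called moved by more than 1.5 times in 16 of 72 recounts, each with another fold or filter on level; for null PNX over null sham it was 1316, and 3109 at a fold of 1.5. Leaving out cells with any marker of another cell type was not run, since it left 6 null PNX and 0 null sham cells. With UMIs from 1 library a group, depth limits Ctgf, Ajuba and Fhl2 most, which had 0 to 17 UMIs in each library other than null PNX.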

Other observations

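The 4 genes given next belong to the lists and lay under the mean of 5 CPM and were not counted there. They are named after their values were seen, and each had its highest level in null PNX. Ccdc80, a secreted matrix protein, had 37 UMIs in null PNX and 1 UMI in each of null sham, control PNX and control sham. Tgfb2, a TGF-β ligand, had 30 UMIs in null PNX, 0 in null sham, 0 in control PNX and 2 in control sham. Ankrd1, a nuclear and sarcomeric protein used as a YAP reporter gene, had 25 UMIs in null PNX, 2 in null sham, 8 in control PNX and 7 in control sham. Tead2, a TEAD factor, had 46 UMIs in null PNX, 9 in null sham, 5 in control PNX and 14 in control sham, whereas Tead1 was lower in null PNX than in control PNX.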
